A study of Ogataea parapolymorpha with 2 samples.

Results

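Hexokinase, phosphofructokinase and pyruvate kinase catalyse the steps of glycolysis at which flux is regulated in most cells. The yeast compared here, Ogataea parapolymorpha (Hansenula polymorpha in the labels), is thermotolerant and grows on methanol. Genes of these enzymes were taken as the rows of the deposited count table whose clusters of orthologous groups (COG) column held COG5026 (hexokinase), COG0205 (phosphofructokinase) or COG0469 (pyruvate kinase). The rule found 6 genes among 5408 features, of which 5325 were protein-coding: 3 in the hexokinase group, 2 in the phosphofructokinase group and 1 in the pyruvate kinase group. Each of the 6 had a single COG entry. The tables carry locus tags and no gene symbols, so each gene is called by its locus tag and its group.

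The samples were 2 RNA-seq libraries of strain DL-1 (written DL1-L in the growth protocol), both of genotype leu-, grown at 37 °C in YPD, a rich glucose medium, to an optical density of 1.0. One library came from cells harvested without the drug and is called untreated. The other came from the rest of the same culture after 20 mM caffeine for 2 h. The labels do not say that an untreated portion was kept for the same 2 h, so caffeine and time in culture cannot be told apart. Each group was 1 library, so the differences below have no replicate check and the conditions were not tested against each other. Counted reads totalled 19184978 in the untreated and 17789838 in the caffeine library.

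Hexokinases phosphorylate glucose as it enters the cell and so hold it there. Phosphofructokinase commits the sugar phosphate to glycolysis and responds to ATP, AMP and fructose 2,6-bisphosphate. Pyruvate kinase makes ATP and pyruvate in the last step and in budding yeast is activated by fructose 1,6-bisphosphate, the product of phosphofructokinase. Budding yeast has several hexose kinases of unequal abundance, one of which also acts in glucose repression, and its phosphofructokinase is built from paralogous alpha and beta subunits. In yeasts grown on glucose, transcripts of glycolytic enzymes are usually among the most abundant of the cell.

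After caffeine, the 5 abundant genes of these enzymes were 3.25- to 5.15-fold lower than without it, and the sixth, a scarce gene of the hexokinase group, was 3.39-fold higher, or 2.04-fold with 5 CPM added to both libraries. This sixth gene reached the 10 CPM needed for comparison only in the caffeine library. Together the 6 genes took up 2.92% of all counted reads in the untreated library (exact Clopper-Pearson 95% interval 2.91 to 2.93) and 0.869% in the caffeine library (0.864 to 0.873). Intervals here and below cover counting error only. Folds are ratios of read counts scaled by the trimmed mean of M values (TMM), caffeine over untreated, and levels are TMM-scaled counts (CPM) per kilobase of listed length, called scaled CPM per kb. Of 4861 genes with at least 10 CPM in at least 1 library, 5.27% were at least 2-fold lower and 7.12% at least 2-fold higher, and the median log2 fold was 0.01. Against this, 5 of the 6 genes were at least 2-fold lower. At the 4-fold limit, which 1.03% of compared genes passed downward, 3 of them were lower. Library totals in place of TMM add 0.22 to every log2 fold. With them 5 of the 6 genes were again at least 2-fold lower, and 2 in place of 3 at least 4-fold lower, since HPODL_01506 then stood at -1.84. All-gene counts with library totals were 175 of 4861 at least 2-fold lower and 35 at least 4-fold lower.

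**Figure D1:**
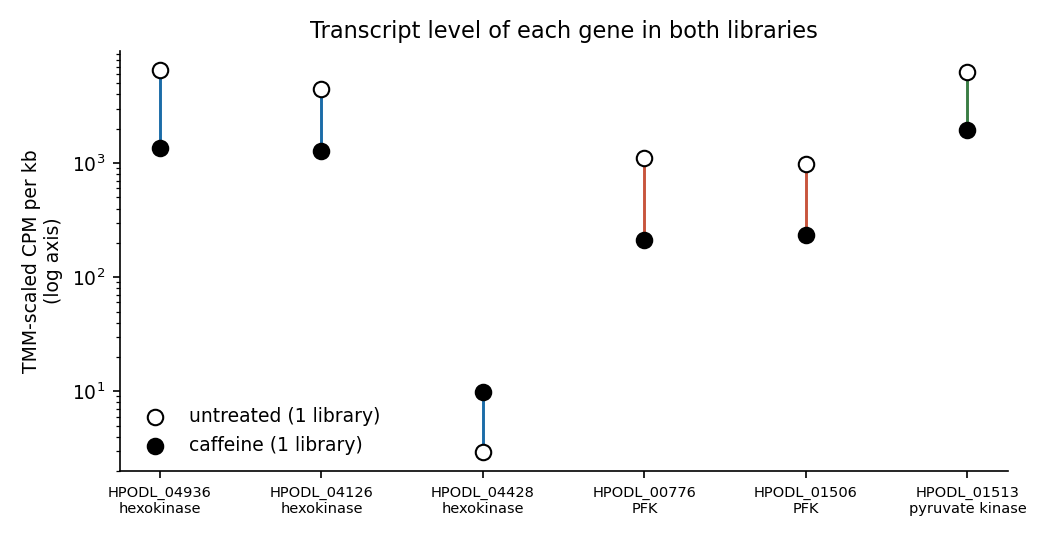
Level of each of the 6 genes in TMM-scaled CPM per kb on a log axis, with open circles for the untreated and filled circles for the caffeine library (1 library each). For 5 genes the filled circle lies below the open one, and for HPODL_04428, at 2.92 and 9.90, it lies above.

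In the hexokinase group the most abundant gene was HPODL_04936, with a listed length of 1452 bases. It had 169788 reads without caffeine and 37704 with it, or 6574 and 1353 scaled CPM per kb. Its log2 fold was -2.28 (95% interval -2.30 to -2.26), which is 4.86-fold lower. By the authors' RPKM values it ranked 30th of 5325 protein-coding genes without caffeine and 142nd with it. Only 30 compared genes had a lower fold.

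HPODL_04126, the other abundant gene of the hexokinase group, has a listed length of 1416 bases. Its reads numbered 111874 without caffeine and 34957 with it, or 4442 and 1287 scaled CPM per kb. The log2 fold was -1.79 (-1.80 to -1.77), 3.45-fold lower, and its rank went from 65th to 148th. Without caffeine the level of HPODL_04936 was 1.48 times that of HPODL_04126 (1.47 to 1.49). With caffeine the ratio was 1.05 (1.04 to 1.07). The log2 folds of the pair differed by -0.49 (-0.52 to -0.47, from the counting error of the 4 counts), so both were lower and their levels stood closer together. As a share of the group's length-scaled reads, HPODL_04936 made up 59.7% without caffeine and 51.1% with it, and HPODL_04126 40.3% and 48.6%.

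HPODL_04428 is the scarce gene of the hexokinase group, with a listed length of 1311 bases. Its match to the group has an e-value of 8.0e-56 in the deposited table, while the other 5 genes are listed at 0.0. It had 68 reads without caffeine and 249 with it, or 2.92 and 9.90 scaled CPM per kb. The log2 fold was 1.76 (1.37 to 2.17). The gene reached 10 CPM only in the caffeine library, so that the filter kept it only through its level there, which favours a higher fold. Of 248 genes kept in that way 125 (50.4%) were at least 2-fold higher, with a median log2 fold of 1.01, and 192 of them had a lower fold than HPODL_04428. Its share of the group's length-scaled reads was 0.0265% without caffeine (0.0206 to 0.0335) and 0.374% with it (0.329 to 0.423). Summed over the 3 genes, hexokinase-group reads went from 281730 to 72910, a log2 fold of -2.06 (-2.07 to -2.05), to which the scarce gene added little.

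**Figure D2:**
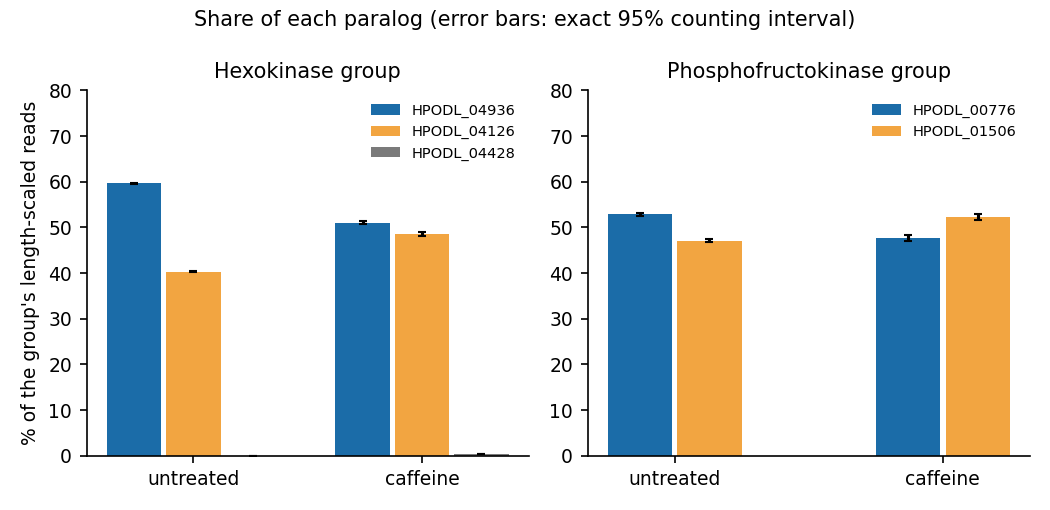
Share of each paralog in its group, as a percentage of the group's reads divided by gene length, in the untreated and the caffeine library, with exact 95% counting intervals as error bars. HPODL_04936 and HPODL_04126 move from 59.7% and 40.3% to 51.1% and 48.6%, and the 2 phosphofructokinase genes change places.

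The phosphofructokinase group holds HPODL_00776, of 2907 bases, and HPODL_01506, of 2832 bases. HPODL_00776 had 56902 reads without caffeine and 11909 with it, or 1100 and 214 scaled CPM per kb. Its log2 fold of -2.37 (-2.39 to -2.34), 5.15-fold lower, was the lowest of the 6 genes, and 28 compared genes had a lower one. HPODL_01506 had 49399 and 12753 reads, or 981 and 235 scaled CPM per kb. That gave a log2 fold of -2.06 (-2.09 to -2.03), 4.18-fold lower. Their RPKM ranks were 198th and 213th without caffeine, in the order named, and 761st and 687th with it.

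The pair changed order. HPODL_00776 stood at 1.12 times the level of HPODL_01506 without caffeine (1.11 to 1.14) and at 0.910 times with it (0.887 to 0.933). Its share of the group's length-scaled reads was 52.9% (52.6 to 53.2) and 47.6% (47.0 to 48.3). The log2 folds differed by -0.30 (-0.34 to -0.26). These intervals leave out the variation between cultures, which 1 library per group does not show. Summed over both genes, reads went from 106301 to 24662, a log2 fold of -2.22 (-2.24 to -2.20), the lowest sum of the 3 enzymes.

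Pyruvate kinase had a single gene, HPODL_01513, of 1524 bases. Its reads numbered 171833 without caffeine and 56980 with it, or 6339 and 1949 scaled CPM per kb. The log2 fold was -1.70 (-1.72 to -1.69), 3.25-fold lower and the smallest difference of the 5 abundant genes. By RPKM it ranked 37th without caffeine and 111th with it.

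The order of levels therefore differed between the libraries. Without caffeine HPODL_04936 stood highest, 1.04 times HPODL_01513 (1.03 to 1.04), which in turn was 1.43 times HPODL_04126. HPODL_04126 was 4.04 times HPODL_00776. With caffeine pyruvate kinase HPODL_01513 stood highest, 1.44 times HPODL_04936 (1.42 to 1.46), followed by HPODL_04126 and, 5.48 times lower than that, HPODL_01506. No neighbouring pair in either order had an interval that held a ratio of 1, but ratios as close to 1 as 1.04 or 1.05 have no replicate spread to be read against. Summed by enzyme, the hexokinase level was 5.29 times that of phosphofructokinase without caffeine and 5.91 times with it. Pyruvate kinase was 3.05 times phosphofructokinase without caffeine and 4.35 times with it.

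Genes of the other steps of the pathway were lower or within 2-fold, and how many passed the limit depended on the scaling. They were drawn from 15 COGs of glycolysis, gluconeogenesis and pyruvate decarboxylase, of which 12 held a gene, 21 genes in all, and all of these were compared. Of the 21 genes 11 were at least 2-fold lower and 0 higher, with a median log2 fold of -1.02, beside 5.27% lower among all compared genes. With library totals, or with ratios of the deposited RPKM values, 5 of the 21 were at least 2-fold lower. Among all compared genes 175 of 4861 were at least 2-fold lower with library totals. Of 8 genes of the reversible glycolytic steps 7 were at least 2-fold lower, or 3 with library totals. Triose-phosphate isomerase, which interconverts the triose phosphates, was the lowest of them. Its gene HPODL_03187 had 40457 and 12633 reads and a log2 fold of -1.79 (-1.82 to -1.76), which the interval does not separate from hexokinase HPODL_04126. The abundant phosphoglycerate mutase gene HPODL_01332 stood at -1.51, enolase HPODL_04582 at -1.24 and glyceraldehyde-phosphate dehydrogenase HPODL_04957 at -1.18. Phosphoglycerate kinase HPODL_04829 stood at -1.04 and aldolase HPODL_03669 at -1.03. Glucose-6-phosphate isomerase, the step between hexokinase and phosphofructokinase, was within 2-fold. Its gene HPODL_01256 had 47941 and 37644 reads and a log2 fold of -0.46 (-0.48 to -0.44). Placed in order of fold, the 5 abundant genes of the 3 regulated enzymes and triose-phosphate isomerase held the 6 lowest places among 14 glycolytic genes. The scarce hexokinase-group gene HPODL_04428 held the highest place, at 1.76. Phosphoglycerate mutase-like genes of COG0406 were not among the 14. The difference between regulated and reversible steps was not tested.

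**Figure D3:**
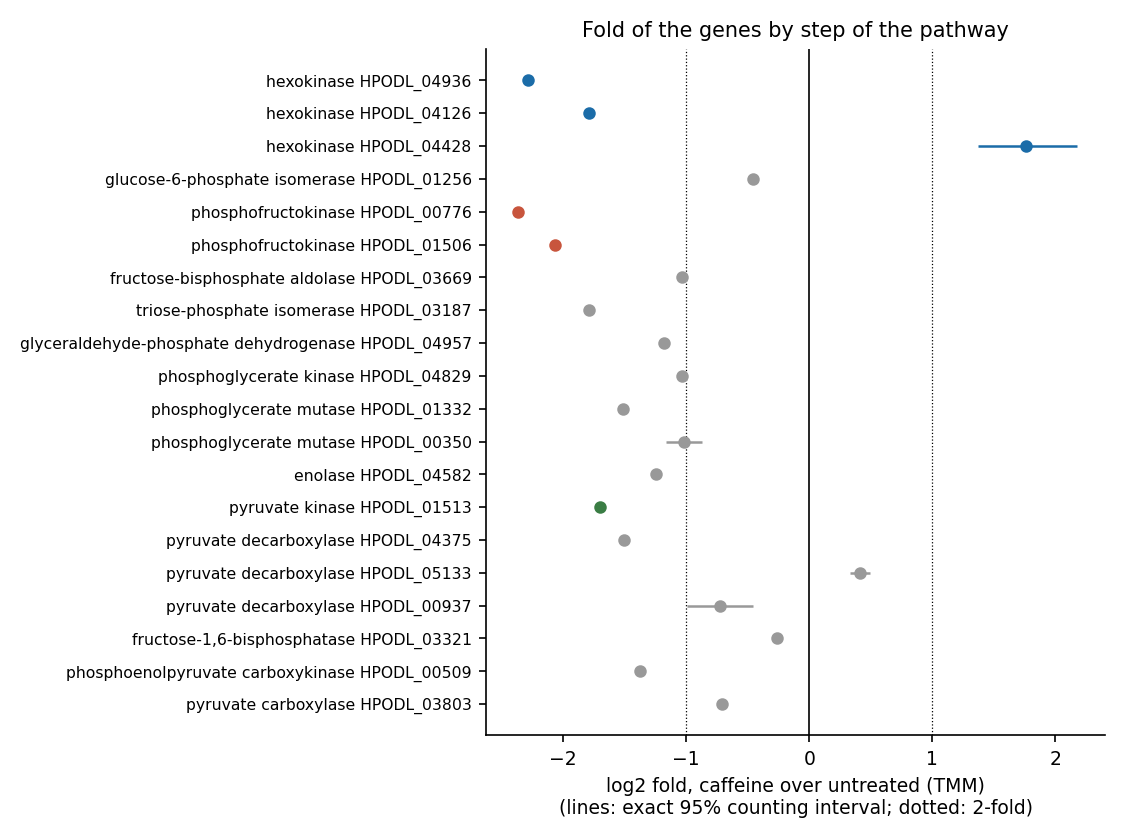
Log2 fold of caffeine over untreated for the genes of each step, in pathway order from hexokinase to pyruvate kinase and then pyruvate decarboxylase and the gluconeogenic enzymes, with exact 95% counting intervals and dotted lines at 2-fold. Coloured points are the 6 genes of the 3 regulated enzymes, 5 of which lie between -2.37 and -1.70, and grey points are the others apart from the COG0406 group.

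Downstream of pyruvate kinase, pyruvate decarboxylase turns pyruvate to acetaldehyde on the way to ethanol. Its abundant gene HPODL_04375 went from 203097 to 77228 reads, a log2 fold of -1.50 (-1.52 to -1.49), while the other 2 genes of the group stood within 2-fold. The enzymes that run against phosphofructokinase and pyruvate kinase in gluconeogenesis gave 3 genes. Of these 1 was at least 2-fold lower, beside 5.27% of all compared genes. The lower gene was phosphoenolpyruvate carboxykinase HPODL_00509 at -1.37 (-1.42 to -1.33). Fructose-1,6-bisphosphatase HPODL_03321, which reverses the phosphofructokinase step, stood at -0.26 (-0.31 to -0.22), with 9094 and 8181 reads. Without caffeine its level was 501 scaled CPM per kb and with caffeine 418, so that with caffeine it lay above both phosphofructokinase genes, at 214 and 235, and without caffeine below them. Pyruvate carboxylase HPODL_03803 stood at -0.71 (-0.73 to -0.68). The COG0406 group holds phosphoglycerate mutase-like proteins and, in yeasts, enzymes that make or break down fructose 2,6-bisphosphate, the activator of phosphofructokinase. Of its 7 genes 2 were at least 2-fold lower, beside 5.27% of all compared genes. The group's count was 0 with library totals, beside 175 of 4861 compared genes. The most abundant, HPODL_02693, stood at -1.10 (-1.15 to -1.05), and the median of the group was -0.22. Which of the 7 act on fructose 2,6-bisphosphate is not named in the tables.

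Abundant genes were at least 2-fold lower more often than higher. Of 213 compared genes with an untreated RPKM of at least 969.74, the level of HPODL_01506, 16.9% were at least 2-fold lower and 1.41% at least 2-fold higher, while 174 lay within 2-fold and the median log2 fold was -0.47. With library totals 26 of the 213 were at least 2-fold lower and 7 higher, and the median was -0.25. The 4-fold limit was passed downward by 7 of these 213 genes (3.29%), among them HPODL_04936, HPODL_00776 and HPODL_01506, and by 6 with library totals, under which HPODL_01506 no longer passed. The 213 genes were chosen by their untreated level, the denominator of the fold, which favours lower folds, and they include the 5 genes. The part that the trend with level has in the folds of the 5 genes was not tested.

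**Figure D4:**
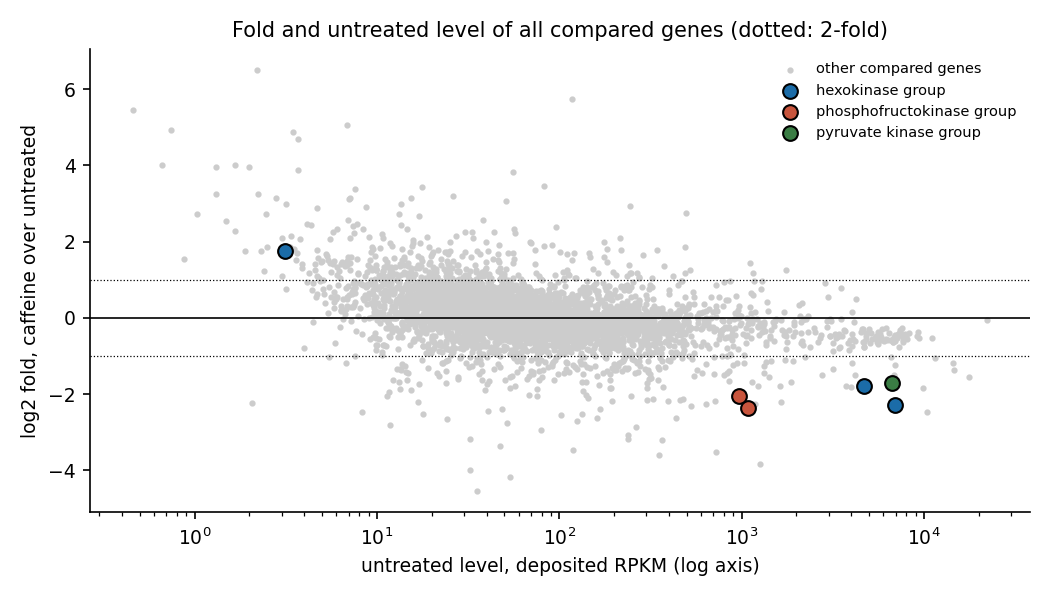
Log2 fold of caffeine over untreated against the untreated RPKM (log axis) for the 4861 compared genes in grey and the 6 genes in colour, with dotted lines at 2-fold. At the abundant end, where the median of 213 genes is -0.47, the 5 coloured points lie between -2.37 and -1.70.

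The gene most alike in level over the 2 libraries was sought for the most abundant gene of each enzyme among 2176 compared genes with a COG, as the smallest distance between pairs of log2 RPKM values. For HPODL_04936 it was pyruvate kinase HPODL_01513, at a distance of 0.52. HPODL_00776 was nearest to the other phosphofructokinase gene HPODL_01506, at 0.21. For HPODL_01513 it was pyruvate decarboxylase HPODL_04375, at 0.25, with RPKM values of 6878 and 2812 beside 6648 and 2370.

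Of the genes next to the 5 abundant ones, most lay within 2-fold, as did 4259 of all 4861 compared genes. The deposited tables give starts and ends with no contig and list each of the 5408 features on the plus strand, so that orientation is not known from them. All 5408 starts and ends equal those of the RefSeq table for assembly Hansenula_2, which was used for the order of genes. Of the 10 genes directly beside the 5 abundant genes 2 were at least 2-fold lower, or 1 with library totals, and the median log2 fold of the 10 was -0.38. The 2 lower genes flank hexokinase HPODL_04126 (651658 to 653073 in the deposited coordinates). HPODL_04125 (COG0190, a group of folate-dependent one-carbon enzymes) stood at -1.12 (-1.20 to -1.04), and HPODL_04127, which has 564 and 148 reads and begins 285 bases further on, stood at -2.04 (-2.31 to -1.78). Around HPODL_04936 (743083 to 744534) the neighbours stood at 0.61 and -0.50, and around HPODL_00776 (1081600 to 1084506) at -0.41 and 0.53.

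Phosphofructokinase HPODL_01506 (692443 to 695274) and pyruvate kinase HPODL_01513 (706102 to 707625) lie on the same chromosome, 10827 bases apart with 6 genes between them. Those 6 genes ranged from -0.66 to 0.83, and 0 were at least 2-fold lower, beside 5.27% of all compared genes. The scarce gene HPODL_04428 (1161740 to 1163050) had 4 genes around it, 2 on each side. Of these 4, 2 were at least 2-fold higher with caffeine, beside 7.12% of all compared genes. With library totals 3 of the 4 were, beside 564 of 4861 compared genes. On one side HPODL_04426 and HPODL_04427 stood at 0.48 (0.37 to 0.58) and 0.94 (0.85 to 1.04), and on the other HPODL_04429 and HPODL_04430 at 1.52 (1.38 to 1.66) and 1.29 (1.09 to 1.50). HPODL_04429 begins 129 bases after HPODL_04428 and had 564 and 1742 reads, against 68 and 249. Whether reads of neighbouring transcripts were counted in HPODL_04428 was not tested.

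**Figure D5:**
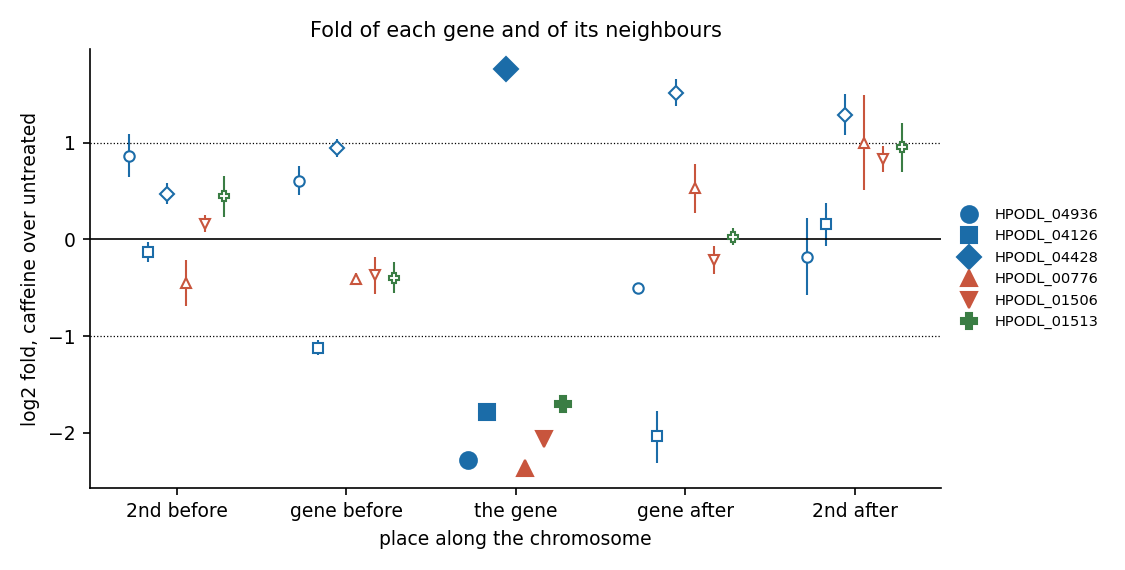
Log2 fold of caffeine over untreated for the 6 genes (filled symbols) and for the 2 genes before and after each along the chromosome (open symbols of the same shape and colour), with exact 95% counting intervals for the neighbours and dotted lines at 2-fold. Beside the 5 abundant genes, the neighbours below the lower dotted line are HPODL_04125 at -1.12 and HPODL_04127 at -2.04.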

How the data were processed

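The labels' protocols name hot phenol extraction and stranded mRNA libraries read as 100-base pairs, and the submitters' processing notes name Bowtie2. The counting tool, its use of strand and the build are not stated, so reads shared by similar or neighbouring genes were not checked. The authors deposited raw read counts per gene, RPKM values (so called in the deposited workbook's sheet name) and scaled signal tables that equal the counts times 1 constant per library (TMM and RLE). The deposited RPKM values imply lengths a median of 176.8 (untreated) and 172.4 (caffeine) bases shorter than listed.

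Counts of 5325 protein-coding genes were scaled by TMM (edgeR 4.0.16, R 4.3.3) to effective totals of 17788292 and 19186645, and genes reaching 10 CPM in at least 1 library, by library totals, were compared. Genes were called by a 2-fold rule, with 4-fold beside it. The 95% intervals are exact Clopper-Pearson intervals of a share of reads, turned into a ratio where a ratio is given, and differences of log2 folds have normal-approximation intervals. PCR reads are not independent molecules, so all of these cover counting error only. Calculations were tested on simulated data. Named were all 6 genes, the most abundant gene of each other COG, the gene most alike to each enzyme's top gene and, chosen after values were seen, neighbouring genes. COG functions come from general knowledge. The members and lists were chosen with earlier results of these data known. Alternatives were library totals, DESeq2 1.42.0 size factors, 5 CPM added to both libraries, no filter and the deposited tables.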

Additional observations from a re-analysis of the deposited data

How the results depend on the processing

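No paired analysis was possible because each group has 1 library, and for the same reason no replicate could be left out. The 6 log2 folds kept their direction under library totals, DESeq2 size factors, 5 CPM added and ratios of the deposited RPKM values, and of the deposited TMM and RLE tables, which were added after seeing the data. With library totals they were -2.06 (HPODL_04936), -1.57 (HPODL_04126), -2.15 (HPODL_00776), -1.84 (HPODL_01506) and -1.48 (HPODL_01513), and with RPKM ratios -2.07, -1.57, -2.15, -1.85 and -1.49 in the same order. HPODL_04428 went from 1.76 to 1.03 with 5 CPM added. The count of 5 lower genes became 3 at 4-fold, and that of 1 higher gene became 0. Of the other list, 11 lower genes became 5 with library totals, 5 with RPKM ratios and 0 at 4-fold. Without division by length, shares (untreated, then caffeine) were 60.3% and 51.7% for HPODL_04936, 39.7% and 47.9% for HPODL_04126, 53.5% and 48.3% for HPODL_00776, and 46.5% and 51.7% for HPODL_01506. Library totals and RPKM lack the TMM factor, which is the constant 0.22. Depth limits HPODL_04428 most, whose 68 untreated reads give the widest interval of the 6 genes.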
